A study of Mus musculus with 18 samples.

Results

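The 9 genes described here encode subunits of the transcription factor NF-kB, proteins that regulate it and its activating kinase. They were taken by symbol from a deposited table of 21638 genes, and are Nfkb1, Nfkb2, Rela, Relb, Nfkbia, Nfkbib, Nfkbiz, Tnfaip3 and Ikbkb. All 9 were found and all 9 had enough reads to be tested, in each of 18 RNA-seq libraries of endothelial cells from the cortex of adult mice. Cells were sorted as CD31+ CD41- CD45-, and libraries were made with a kit for ultra-low RNA input. MCAO, the occlusion of the middle cerebral artery, models ischaemic stroke, and sham-operated mice served as controls.

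There were 6 groups of 3 libraries. Sham ipsilateral, sham contralateral, MCAO ipsilateral and MCAO contralateral came from mice whose genotype is labelled WT. The 2 other groups came from the ipsilateral side of occluded mice labelled Hdac2 ECKO or Ezh2 ECKO, which carried Hdac2lox/lox or Ezh2lox/lox alleles together with Cdh5CreERT2, a tamoxifen-dependent recombinase expressed from the endothelial Cdh5 promoter. All 6 groups are labelled as given tamoxifen at 75 mg per kg. The schedule stated for the deletion mice was 5 doses from day 0 to day 4, and tissue was collected at day 7 of stroke. The labels give neither an age beyond adult nor whether the WT mice carried the recombinase. They also do not say whether libraries of a group came from separate or pooled mice, or whether the 2 sides came from the same mice. The sides were tested as separate samples. The p-values below therefore measure the spread between libraries, which may be partly technical.

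NF-kB is a dimer of Rel proteins: Rela and Relb carry a transactivation domain, while Nfkb1 and Nfkb2 encode precursors that are processed to p50 and p52. In resting cells the dimers are held in the cytoplasm by IkB proteins, among them those encoded by Nfkbia (IkBa) and Nfkbib (IkBb), and the IKK complex, whose catalytic subunit IKKb is encoded by Ikbkb, phosphorylates these inhibitors for degradation. Nfkbia, Tnfaip3 (A20, a ubiquitin-editing enzyme that limits signalling upstream of IKK) and Nfkbiz (IkBz, a nuclear IkB protein) are themselves known NF-kB target genes. Through IkBa and A20, activation is thus followed by its own restraint. In brain endothelium the pathway is known for inducing leukocyte adhesion molecules and chemokines after inflammatory or ischaemic injury. Messenger RNA levels, as measured here, do not report where the proteins are in the cell.

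The sequence before the Nfkbia start site is shown because Nfkbia is the member that passed the test below, and because its promoter is a known NF-kB target. It is the 250 bases at chr12:55492648-55492897 on the minus strand of GRCm38.p6, from RefSeq, written 5′ to 3′ in the direction of the gene. Capitals mark a match to the kB consensus, the 10-base motif bound by NF-kB dimers.
Nfkbia: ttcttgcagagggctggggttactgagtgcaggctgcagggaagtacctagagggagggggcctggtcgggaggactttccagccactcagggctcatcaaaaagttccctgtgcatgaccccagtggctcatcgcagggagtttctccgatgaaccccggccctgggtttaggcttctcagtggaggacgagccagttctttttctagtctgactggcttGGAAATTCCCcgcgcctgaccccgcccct
This match starts 29 bases before the start site and reads as the consensus on the strand opposite to the one printed. Both strands were searched, and 3.9% of 32817 RefSeq windows of the same length held at least 1 match. RefSeq windows were at hand for 5 of the 9 members, 8 windows in all. The Nfkb2 windows (chr19:46304487-46304736, chr19:46305445-46305694 and chr19:46305680-46305929, plus strand) and the Tnfaip3 window at chr10:19015411-19015660 (minus strand) lie in or over the annotated genes, so only their matches are given, each 5′ to 3′ in the direction of the gene.
Nfkb2, first window, 39 bases before the start: GGGAATTCCC
Nfkb2, first window, 38 bases before the start: GGAATTCCCC
Nfkb2, first window, 11 bases before the start: GGGGCTTTCC
Nfkb2, second window, 236 bases before the start: GGAATGTCCC
Nfkb2, last window, 225 bases before the start: GGGACTTTCC
Tnfaip3, 125 bases before the start: GGGACACCCC
Tnfaip3, 12 bases before the start: GGAAATCCCC
The matches at 39 and 38 bases overlap each other. At least 3 matches, as in the first Nfkb2 window, were found in 0.0427% of all windows, and at least 2, as in the Tnfaip3 window, in 0.494%. A second Tnfaip3 window and the windows of Rela and Nfkbib held no match to these letters. No measurement in this series bears on binding at these matches.

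Total counts ran from 25791401 to 57576255 per library, and 15428 to 20940 genes had a count above 0. All 12 endothelial markers were detected, with summed levels of 8017 to 27662 CPM, the count scaled to its library's TMM-adjusted total. Summed levels reached 8.60 CPM for neuron markers, 22.9 for astrocyte, 25.1 for other leukocyte and 81.6 for platelet markers. They reached 169 CPM for oligodendrocyte and 174 for pericyte and smooth muscle markers. Summed red cell genes were 19222 to 59003 CPM in sham ipsilateral and 72026 to 129586 in sham contralateral. They were 38267 to 65445 CPM in MCAO ipsilateral and 37448 to 159427 in MCAO contralateral. Libraries labelled Hdac2 ECKO held 49294 to 297849 CPM and those labelled Ezh2 ECKO 70.1 to 671 CPM. Red cell genes thus exceeded the endothelial sum in every library but those labelled Ezh2 ECKO. A pair of libraries stood apart in counts of olfactory and vomeronasal receptor genes, which cortical endothelium is not known to express: MCAO contralateral replicate 1 with 1889 CPM and replicate 2 labelled Ezh2 ECKO with 2083 CPM, against 152 to 716 CPM in the others. Neither deleted gene was called as lower in the libraries labelled for its deletion. The Hdac2 mean was slightly below that of MCAO ipsilateral, and the Ezh2 mean was above it. Under its own label Hdac2 stood at 76.8 ± 16.8 CPM (SD, n = 3), and in MCAO ipsilateral at 82.9 ± 14.0, with an adjusted p of 0.925. Ezh2 stood at 13.4 ± 5.76 CPM in libraries labelled Ezh2 ECKO and 6.44 ± 1.77 in MCAO ipsilateral, with an adjusted p of 0.485. These counts cover each whole gene, so a loss limited to the floxed exons was not tested, and groups are therefore named by their label throughout.

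Across the 9 genes and 10 comparisons, 1 value passed the test: Nfkbia fell to 0.312 times its MCAO ipsilateral level in libraries labelled Ezh2 ECKO. The test was edgeR's quasi-likelihood F-test with a Benjamini-Hochberg adjusted p under 0.05 over 17094 genes. In that comparison 1 of 9 members was called against 1.46% of all genes, and 3 of 9 had an unadjusted p under 0.05 against 19.2%. All libraries lay below for 3 of 9 (15.3% of genes) and above for 0 of 9 (13.6%). For the Hdac2 ECKO label against MCAO ipsilateral, 0 of 9 members were called (0.0117% of all genes), 2 had an unadjusted p under 0.05 (9.85%), and DESeq2 called 1. For MCAO against sham on the ipsilateral side, 0 of 9 were called (0% of all genes), 0 had an unadjusted p under 0.05 (7.08%), and DESeq2 called 0. The same 3 counts were 0, 0 and 0 for MCAO against sham on the contralateral side (0% called and 4.41% unadjusted over all genes, with all 9 overlapping where 3.65% of genes lay all above and 6% all below) and for the difference between the occlusion effects on the 2 sides (0% and 3.38%).

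**Figure D1:**
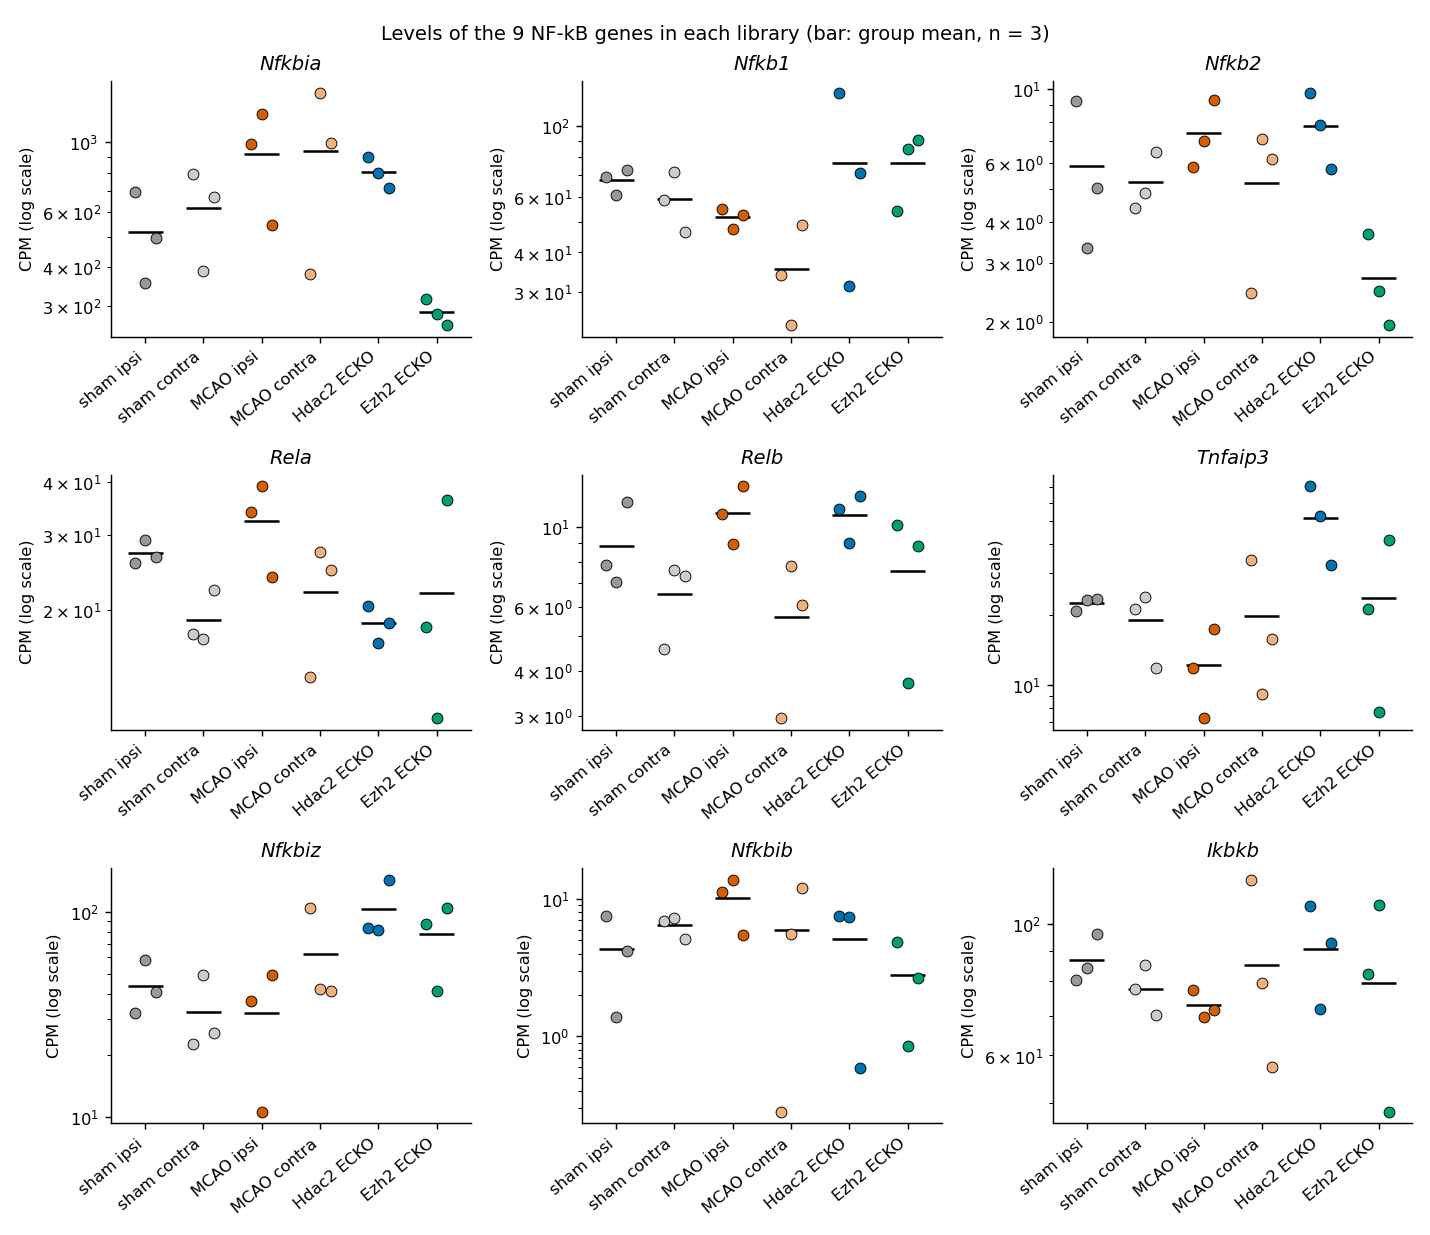
Level of each of the 9 genes in the 18 libraries, in CPM on log axes that differ between panels, with 1 point per library and a bar at the mean of the 3 libraries of a group. Nfkbia lies between 261 and 317 CPM in the libraries labelled Ezh2 ECKO, below those of MCAO ipsilateral, as for 15.3% of genes. Tnfaip3 lies highest in the libraries labelled Hdac2 ECKO, where 1 of 3 falls within the range of the other groups.

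Per kilobase of exon, the inhibitor Nfkbia was by far the most abundant member, at 423 ± 211 CPM per kilobase (SD over 18 libraries). It was followed by Nfkbiz at 11.7 ± 6.94, Rela at 7.66 ± 2.51, Nfkb1 at 5.06 ± 2.01, Ikbkb at 4.30 ± 0.922 and Tnfaip3 at 3.42 ± 2.29 CPM per kilobase. Nfkbib at 2.68 ± 1.80, Relb at 2.15 ± 0.734 and Nfkb2 at 1.24 ± 0.526 CPM per kilobase came last. Nfkbia was above Nfkbiz in 18 of 18 libraries and Relb above Nfkb2 in 17, while Nfkbiz exceeded Rela in 11, Tnfaip3 exceeded Nfkbib in 9 and Nfkbib exceeded Relb in 10, so these neighbours did not differ beyond their spread. Ikbkb is scaled by an exon length of 19078 bases and Nfkbia by 1610 bases, and an exon model longer than the transcripts in these cells would lower the scaled value.

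The members also differed in how much they varied. The highest library exceeded the lowest by 2.46 times for Ikbkb, 3.50 times for Rela, 4.39 times for Relb, 5.00 times for Nfkb2, 5.39 times for Nfkb1 and 5.52 times for Nfkbia. It exceeded the lowest by 9.75 times for Tnfaip3, 13.5 times for Nfkbiz and 49.1 times for Nfkbib, whose lowest library rests on 9 counts. That library was MCAO contralateral replicate 1, which also held high counts of olfactory and vomeronasal receptor genes. Nfkbia, Tnfaip3, Nfkbiz and Nfkbib thus had wider ranges than any subunit or the kinase, though Nfkbia at 5.52 was close to Nfkb1 at 5.39.

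Rela (chr19:5637483-5648130, plus strand, GRCm38) encodes p65, the main transactivating subunit. Its levels were 25.9, 29.2 and 26.7 CPM in sham ipsilateral, 17.6, 17.1 and 22.3 in sham contralateral, 34.0, 39.1 and 24.0 in MCAO ipsilateral and 13.9, 27.4 and 24.9 in MCAO contralateral. They were 20.5, 16.7 and 18.7 CPM in libraries labelled Hdac2 ECKO and 18.2, 11.2 and 36.3 in those labelled Ezh2 ECKO. All 3 libraries labelled Hdac2 ECKO lay below all 3 of MCAO ipsilateral, as 10.3% of genes did, with a log2 difference of -0.79 ± 0.44 (SE) and an adjusted p of 0.565. The difference between MCAO and sham on the ipsilateral side was 0.25 ± 0.43 on the log2 scale, with groups that overlap and an adjusted p of 0.896.

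Relb (chr7:19606217-19629438, minus strand), the partner of p52 in the non-canonical pathway, was found at 2.95 to 12.9 CPM. Its 3 libraries were at 7.84, 7.03 and 11.7 CPM in sham ipsilateral, 4.60, 7.60 and 7.30 in sham contralateral, 10.8, 8.96 and 12.9 in MCAO ipsilateral and 2.95, 7.80 and 6.08 in MCAO contralateral. Every MCAO ipsilateral library was above every MCAO contralateral one, as for 3.49% of genes, with a log2 difference of 0.96 ± 0.57, an unadjusted p of 0.109 and an adjusted p of 1.00, while 0 members lay all below (1.88% of genes). Libraries labelled Hdac2 ECKO held 11.2, 9.03 and 12.1 CPM and those labelled Ezh2 ECKO 10.1, 3.70 and 8.83 CPM, both overlapping MCAO ipsilateral.

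Nfkb1 (chr3:135584655-135691547, minus strand), the gene of p105 and p50, stood at 69.2, 60.5 and 72.6 CPM in sham ipsilateral and 54.8, 47.3 and 52.6 in MCAO ipsilateral. All MCAO libraries were thus below all sham libraries on this side, with a log2 difference of -0.39 ± 0.41 and an adjusted p of 0.832. On the contralateral side sham held 58.6, 71.6 and 46.4 CPM and MCAO 34.0, 23.7 and 48.8, a log2 difference of -0.73 ± 0.41 with an unadjusted p of 0.0877 and an adjusted p of 0.920. The libraries labelled Hdac2 ECKO spread over 128, 31.4 and 71.3 CPM, and those labelled Ezh2 ECKO held 54.1, 84.6 and 90.4 CPM. Their log2 differences from MCAO ipsilateral were both 0.57 ± 0.41, with adjusted p of 0.672 and 0.430.

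Nfkb2 (chr19:46304320-46312385, plus strand), the gene of p100 and p52, was the least abundant subunit. It stood at 9.26, 3.34 and 5.06 CPM in sham ipsilateral, 4.40, 4.88 and 6.48 in sham contralateral, 5.86, 6.97 and 9.30 in MCAO ipsilateral and 2.45, 7.08 and 6.17 in MCAO contralateral. Libraries labelled Hdac2 ECKO held 9.78, 7.82 and 5.76 CPM, and those labelled Ezh2 ECKO 3.67, 2.48 and 1.96 CPM. The 3 libraries labelled Ezh2 ECKO were below all 3 of MCAO ipsilateral, as 15.3% of genes were. They were also below all 3 labelled Hdac2 ECKO, as 6.87% of genes were.

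For Nfkb2 the log2 difference between libraries labelled Ezh2 ECKO and MCAO ipsilateral was -1.45 ± 0.65 (95% interval -2.79 to -0.11), with an unadjusted p of 0.0356. It did not pass the adjustment (adjusted p = 0.225 by edgeR, and 0.0433 by DESeq2 to 0.580 over the alternatives). Against libraries labelled Ezh2 ECKO, those labelled Hdac2 ECKO were higher by 1.53 ± 0.65 on the log2 scale, with an adjusted p of 0.377 by edgeR and, over the alternatives, 0.0372 by DESeq2 to 0.763. Exons of Nfkb2 share 299 bases with Psd and 531 with AC114539.1 on the other strand, and since the strand setting of the counting is not given in the sources used here, its counts are uncertain.

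Nfkbia (chr12:55489410-55492647, minus strand) encodes IkBa, the inhibitor that is degraded on activation and then made again from its NF-kB-driven promoter. It stood at 695, 355 and 496 CPM in sham ipsilateral, 794, 388 and 670.2 in sham contralateral, 989.7, 1230.0 and 544 in MCAO ipsilateral and 380.0, 1442 and 999 in MCAO contralateral. It held 896, 797 and 714 CPM in libraries labelled Hdac2 ECKO and 317, 283 and 261 CPM in those labelled Ezh2 ECKO. Replicates of a group agreed most closely under the Ezh2 ECKO label (highest over lowest 1.21) and the Hdac2 ECKO label (1.26), and least in MCAO contralateral (3.80).

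Nfkbia fell to 287 ± 28.1 CPM (SD, n = 3) in libraries labelled Ezh2 ECKO from 921 ± 348 in MCAO ipsilateral, all 3 libraries lying below all 3. The log2 difference was -1.68 ± 0.42 (95% interval -2.56 to -0.81) with an adjusted p of 0.0479. The median of all genes stood at 0.17 in this comparison (0.36 with RLE scaling), and Nfkbia lay at -1.86 relative to it under either scaling. The call was lost without any filter on low counts (adjusted p = 0.0518) and with the level of olfactory and vomeronasal receptor genes as a covariate (log2 -1.02, adjusted p = 0.218). It was lost on leaving out MCAO ipsilateral replicate 1 (adjusted p = 0.124) or 2 (0.257), or replicate 1 (0.0726), 2 (0.109) or 3 (0.145) labelled Ezh2 ECKO, and held without MCAO ipsilateral replicate 3 (0.0301) and without both libraries of high receptor gene counts (0.0233).

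Markers moved with this comparison. Summed endothelial markers were 8017 to 12342 CPM in libraries labelled Ezh2 ECKO and 17425 to 27662 in MCAO ipsilateral. Ly6c1 alone averaged 3550 of a mean sum of 10261 CPM under that label, and 14514 of 23251 CPM in MCAO ipsilateral. The difference in the sum thus rests largely on this gene. Summed red cell genes were 70.1 to 671 CPM against 38267 to 65445 CPM. Summed platelet markers were 17.2 to 29.5 CPM against 34.6 to 38.2 CPM. The highest mean among them was that of Itga2b under the Ezh2 ECKO label, at 16.7 CPM, and of Ppbp in MCAO ipsilateral, at 14.0 CPM. The mean of Itga2b was thus higher under that label, against the direction of the sum. Summed immediate early genes, which rise on cell handling, were 1955 to 3124 against 1437 to 2483 CPM. Their part in the Nfkbia difference was not tested, and fewer cells of a type and less RNA per cell cannot be told apart in these bulk libraries.

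Between MCAO and sham on the ipsilateral side, Nfkbia differed by 0.84 ± 0.41 on the log2 scale (515 ± 171 CPM in sham), with an unadjusted p of 0.0545 and an adjusted p of 0.707. On the contralateral side the log2 difference was 0.61 ± 0.41, with an adjusted p of 0.920, and the difference between the sides was 0.23 ± 0.58. Libraries labelled Hdac2 ECKO differed from MCAO ipsilateral by -0.20 ± 0.41 (interval -1.05 to 0.65; adjusted p = 0.893), and all 3 were above all 3 sham ipsilateral ones by 0.64 ± 0.41 (adjusted p = 0.897), as 6.96% of genes were. Rela was the 1 member with all libraries below sham ipsilateral under that label, with -0.55 ± 0.43 on the log2 scale, where 8.34% of genes were. Nfkbia in all libraries labelled Ezh2 ECKO lay below all sham ipsilateral libraries, as 8.13% of genes did. Its log2 difference was -0.84 ± 0.41, with an unadjusted p of 0.0527 and an adjusted p of 0.772. In that comparison 0 members lay all above (5.55%).

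Set directly against each other, the libraries labelled Hdac2 ECKO held more Nfkbia than those labelled Ezh2 ECKO in 3 of 3 against 3 libraries, by 1.48 ± 0.42 on the log2 scale (interval 0.62 to 2.35). The unadjusted p was 0.00186 and the adjusted p 0.163 by edgeR, and 0.0287 by DESeq2 to 0.343 over the alternatives. In this comparison 0 of 9 members were called by edgeR (0.123% of all genes), 2 had an unadjusted p under 0.05 (11.2%) and DESeq2 called 2, Nfkbia and Nfkb2. These 2 also had all libraries above (6.87% of genes), and 0 had all below (5.26%). Of the 9, 8 had a positive log2 value, as 44.4% of all genes did, with a median of 0.51 against -0.15 over all genes. Among the 8, Nfkb1 (0.007), Ikbkb (0.19) and Nfkbib (0.87) changed sign under at least 1 alternative.

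Nfkbib (chr7:28758251-28767512, minus strand), the gene of IkBb, was low and uneven. It stood at 7.51, 1.38 and 4.17 CPM in sham ipsilateral, 6.93, 7.33 and 5.14 in sham contralateral, 11.2, 13.9 and 5.50 in MCAO ipsilateral and 0.283, 5.58 and 12.0 in MCAO contralateral. Libraries labelled Hdac2 ECKO held 7.47, 7.34 and 0.588 CPM and those labelled Ezh2 ECKO 4.85, 0.854 and 2.68 CPM, all 3 below MCAO ipsilateral. That log2 difference was -1.86 ± 1.02, with an unadjusted p of 0.0828 and an adjusted p of 0.317, and it came to 0.04 with the receptor gene covariate. Its exons share 314 bases with Ccer2 and 42 with Sirt2 on the other strand, which makes its counts uncertain too.

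Tnfaip3 (chr10:19000910-19015657, minus strand) encodes A20. It stood at 20.7, 23.1 and 23.4 CPM in sham ipsilateral, 21.1, 23.8 and 11.9 in sham contralateral, 11.9, 7.24 and 17.4 in MCAO ipsilateral and 34.1, 9.19 and 15.8 in MCAO contralateral. Libraries labelled Hdac2 ECKO held 70.6, 52.5 and 32.5 CPM, and those labelled Ezh2 ECKO 21.1, 7.74 and 41.5 CPM. The 3 MCAO ipsilateral libraries lay below the 3 sham ipsilateral ones, as for 14.4% of genes. The 3 labelled Hdac2 ECKO lay above MCAO ipsilateral, as for 9.54% of genes, and above sham ipsilateral, as for 6.96%.

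Under the Hdac2 ECKO label Tnfaip3 averaged 51.8 ± 19.1 CPM, against 12.2 ± 5.07 CPM in MCAO ipsilateral, a log2 difference of 2.09 ± 0.58 (95% interval 0.89 to 3.30). Its unadjusted p was 0.00162, and it did not pass the adjustment by edgeR (adjusted p = 0.306), while DESeq2 gave 0.0267 and edgeR gave 0.0425 without both libraries of high receptor gene counts, which were in neither group. Over all alternatives the adjusted p ran up to 0.997, reached without MCAO ipsilateral replicate 2. Against sham ipsilateral the log2 difference was 1.21 ± 0.56, with an unadjusted p of 0.0436 and an adjusted p of 0.663. Between MCAO and sham ipsilateral it was -0.88 ± 0.56, with an adjusted p of 0.752, and between the 2 deletion labels 1.14 ± 0.56, with an unadjusted p of 0.0551 and an adjusted p of 0.460.

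Nfkbiz (chr16:55811375-55838899, minus strand), the nuclear IkB protein that acts on a subset of NF-kB targets, stood at 32.4, 58.0 and 40.9 CPM in sham ipsilateral, 22.7, 49.4 and 25.8 in sham contralateral, 36.8, 10.6 and 49.3 in MCAO ipsilateral and 104, 41.9 and 41.3 in MCAO contralateral. It held 83.6, 81.8 and 144 CPM in libraries labelled Hdac2 ECKO and 87.3, 41.2 and 105 in those labelled Ezh2 ECKO. Every library labelled Hdac2 ECKO was above every MCAO ipsilateral library, as for 9.54% of genes, and above every sham ipsilateral one, as for 6.96%. Libraries labelled Ezh2 ECKO overlapped both groups.

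The log2 difference of Nfkbiz between libraries labelled Hdac2 ECKO and MCAO ipsilateral was 1.68 ± 0.52 (interval 0.59 to 2.76), with an unadjusted p of 0.00428 and an adjusted p of 0.394. Tnfaip3 and Nfkbiz were the 2 of 9 members with all libraries above in that comparison, where 9.54% of genes were. Against sham ipsilateral Nfkbiz differed by 1.24 ± 0.52, with an adjusted p of 0.590. Libraries labelled Ezh2 ECKO differed from MCAO ipsilateral by 1.27 ± 0.52 (interval 0.19 to 2.35), with an unadjusted p of 0.0230 and an adjusted p of 0.186. The 2 deletion labels differed by 0.41 ± 0.51 (interval -0.66 to 1.47), which does not show that they were alike.

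Summed immediate early genes were higher in libraries labelled Hdac2 ECKO, at 2932 to 4189 CPM, than in MCAO ipsilateral, at 1437 to 2483 CPM, with 2201 to 2664 CPM in sham ipsilateral. Summed red cell genes were 49294 to 297849 CPM in libraries labelled Hdac2 ECKO, against 38267 to 65445 CPM in MCAO ipsilateral. Summed endothelial markers were lower under that label, at 12161 to 17001 CPM against 17425 to 27662 CPM. Ly6c1 alone averaged 7686 of a mean sum of 15012 CPM under that label, and 14514 of 23251 CPM in MCAO ipsilateral. Tnfaip3 and Nfkbiz are, like the immediate early genes, known for rapid induction, and the part of these markers in their values was not tested.

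Ikbkb (chr8:22659212-22706589, minus strand), the catalytic IKKb subunit, varied least. It stood at 80.2, 84.2 and 96.0 CPM in sham ipsilateral, 77.6, 85.3 and 70.3 in sham contralateral, 77.3, 69.8 and 71.6 in MCAO ipsilateral and 119, 79.5 and 57.3 in MCAO contralateral. Libraries labelled Hdac2 ECKO held 107, 71.8 and 92.8 CPM and those labelled Ezh2 ECKO 82.2, 108 and 48.2 CPM. MCAO ipsilateral lay below sham ipsilateral in all 3 libraries, by -0.25 ± 0.33 on the log2 scale (interval -0.94 to 0.44; adjusted p = 0.859). Ikbkb, Nfkb1 and Tnfaip3 were the 3 of 9 members whose MCAO libraries all lay below sham on that side, as 14.4% of genes did, and 0 of 9 lay all above, against 13.3% of genes.

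**Figure D2:**
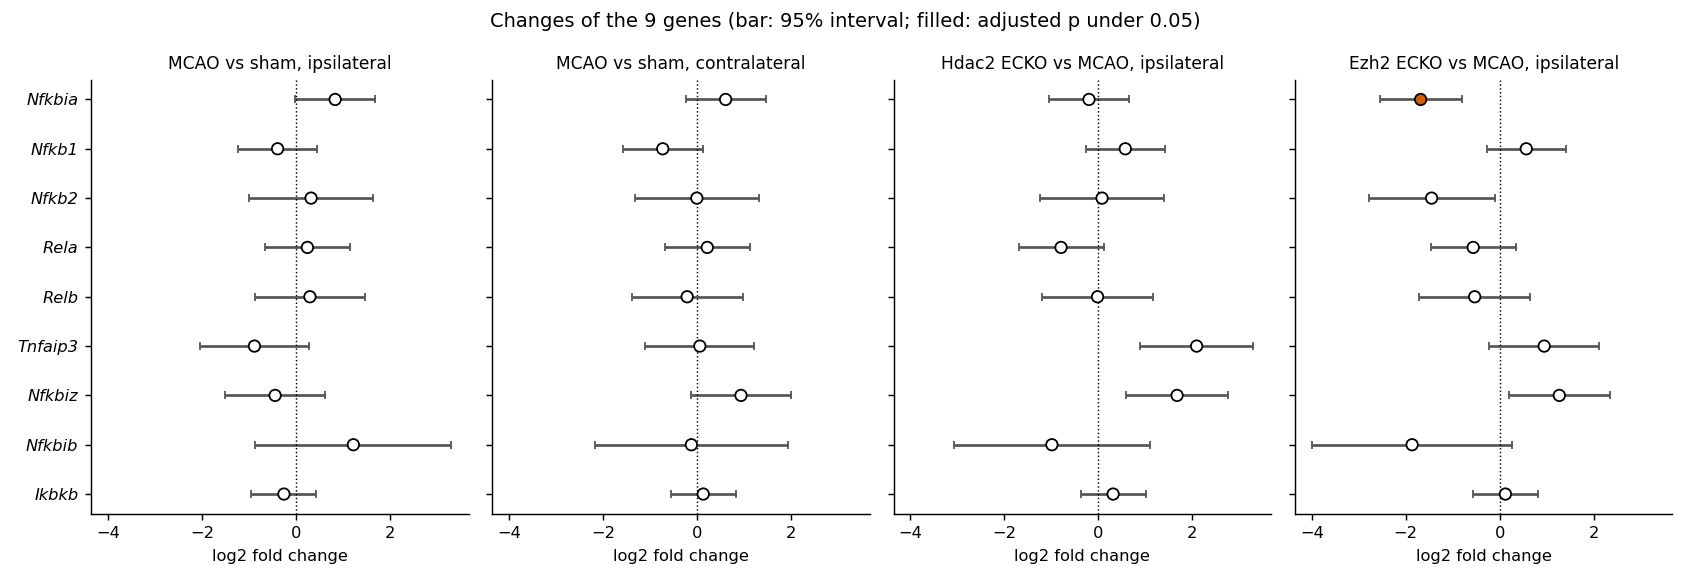
Log2 fold change of each of the 9 genes in 4 comparisons, with a point for the edgeR estimate and a bar for its 95% interval, filled where the adjusted p was under 0.05. The filled point is Nfkbia between libraries labelled Ezh2 ECKO and MCAO ipsilateral, at -1.68, and the Tnfaip3 and Nfkbiz points under the Hdac2 ECKO label, at 2.09 and 1.68, are open.

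Nfkbia was also set against Tnfaip3 and Nfkbiz within each library, which does not depend on the scaling between libraries. Counts of Nfkbia per count of Tnfaip3 were 83.3, 170 and 31.3 in MCAO ipsilateral and 12.7, 15.2 and 22.0 in libraries labelled Hdac2 ECKO, so that the 2 groups did not overlap. Tnfaip3 by itself already separated these 2 groups, lying all above under the label as 9.54% of genes did. The ratios to Tnfaip3 were 33.6, 15.4 and 21.2 in sham ipsilateral and 15.0, 36.6 and 6.29 in libraries labelled Ezh2 ECKO. Contralateral libraries held 37.7, 16.3 and 56.5 in sham and 11.1, 157 and 63.2 in MCAO. Counts of Nfkbia per count of Nfkbiz were 26.9, 116 and 11.0 in MCAO ipsilateral, 10.7, 9.74 and 4.97 under the Hdac2 ECKO label and 3.63, 6.87 and 2.49 under the Ezh2 ECKO label. The ratios of libraries labelled Hdac2 ECKO and Ezh2 ECKO to Nfkbiz thus both lay below those of MCAO ipsilateral, for Hdac2 ECKO narrowly (10.7 against 11.0). Nfkbiz by itself already separated the Hdac2 ECKO label from MCAO ipsilateral, and Nfkbia the Ezh2 ECKO label. Ratios to Nfkbiz were 6.12 to 21.5 in sham ipsilateral and 3.66 to 34.4 in MCAO contralateral, overlapping both labels. In sham contralateral they were 7.85 to 34.9, overlapping the Hdac2 ECKO label only. How often other gene pairs separate in this way was not tested. The size of such a ratio depends on the lengths of the 2 genes.

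**Figure D3:**
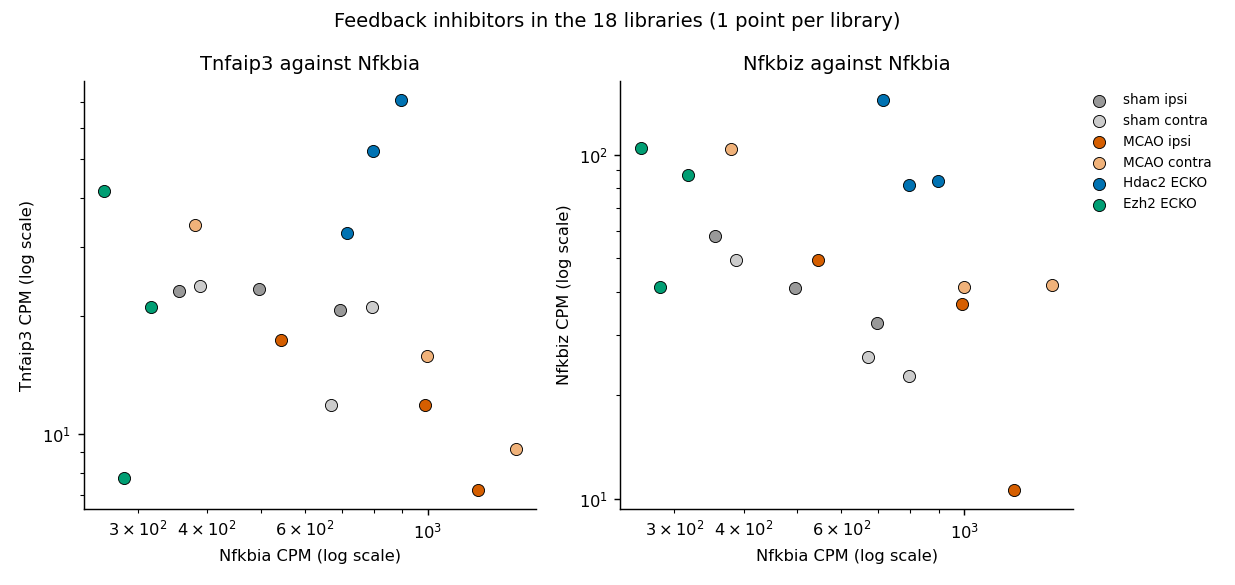
Tnfaip3 (left) and Nfkbiz (right) against Nfkbia, in CPM on log axes, with 1 point for each of the 18 libraries coloured by group. Libraries labelled Ezh2 ECKO lie at the left, at 261 to 317 CPM of Nfkbia, and those labelled Hdac2 ECKO lie at 714 to 896 CPM of Nfkbia with 32.5 to 70.6 CPM of Tnfaip3.

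Over the 18 libraries, which share groups and differ in depth and background, the levels of Tnfaip3 and Nfkbiz correlated at Pearson r = 0.73 as a description. Nfkbia correlated with Nfkb2 at 0.75 and with Nfkbib at 0.62, and Nfkb2 with Nfkbib at 0.64. Nfkbia stood at -0.23 with Tnfaip3 and -0.45 with Nfkbiz, Nfkbiz with Nfkbib at -0.59, and Rela with Ikbkb at -0.61. The same measure on log2(CPM + 1) ranked the 7813 other genes whose mean reached 10 CPM. Those most like Nfkbia were Ifi35 (0.95), Fam104a (0.94), Pfn1 (0.94), Clic1 (0.94) and Ftl1 (0.93), and those most like Rela were Ncaph (0.84), Blmh (0.82), Oxa1l (0.82), Traf7 (0.82) and Utp6 (0.81).

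Ifi35, an interferon-induced gene, shows the shape shared with Nfkbia: its mean was 330.1 CPM in MCAO ipsilateral, 127 in sham ipsilateral, 190.2 under the Hdac2 ECKO label and 69.3 under the Ezh2 ECKO label. Ftl1, the ferritin light chain, averaged 2746 CPM in MCAO ipsilateral, 952 in sham ipsilateral, 1520 under the Hdac2 ECKO label and 439.6 under the Ezh2 ECKO label. Both were thus lowest under the Ezh2 ECKO label, as Nfkbia was. They were chosen for their correlation with Nfkbia over these same libraries, so this likeness follows from the choice and is no separate result.

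Other genes of the pathway were read from 2 lists, which were chosen with earlier results of these data known. The list of other signalling genes holds 50 receptors, adaptors, kinases and regulators, all tested. Between MCAO and sham ipsilateral, 31 were higher and 19 lower, with a median log2 value of 0.22 (-0.09 over all genes). Of the 50, 0 were called (0% of all genes), 2 had an unadjusted p under 0.05 (7.08%), and DESeq2 called 0. A fit of only the 2 groups compared called 1, Bcl3, at an adjusted p of 0.0476. The smallest p-values were those of Bcl3, a nuclear IkB protein that binds p50 and p52, at 14.5 CPM in MCAO and 2.83 in sham (log2 2.36 ± 0.87, adjusted p = 0.630), Nkiras2, which slows the degradation of IkB proteins (1.67 ± 0.72, adjusted p = 0.657), and Chuk, the IKKa subunit (-0.92 ± 0.47, adjusted p = 0.715).

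Between libraries labelled Ezh2 ECKO and MCAO ipsilateral, 21 of these 50 genes were higher and 29 lower, with a median of -0.12 against 0.17 over all genes. Of the 50, 1 was called, against 1.46% of all genes. Ly96, which encodes the MD-2 partner of the endotoxin receptor TLR4, rose to 206 CPM (106 to 285) from 38.3 CPM (15.3 to 79.6), a log2 difference of 2.43 ± 0.56 with an adjusted p of 0.0373. The next smallest were Tnip2, an A20-binding protein (-1.66 ± 0.43, adjusted p = 0.0546), and Sharpin, a subunit of the linear ubiquitin ligase complex (-2.42 ± 0.64, adjusted p = 0.0571). The count was 4 without both libraries of high receptor gene counts. It was 0 with the receptor gene covariate, where Ly96 had an adjusted p of 0.0833, and 0 without MCAO ipsilateral replicate 1 or 2 or replicate 2 or 3 labelled Ezh2 ECKO. Without replicate 1 of that label Ly96 was not called (adjusted p = 0.0688) and Sharpin was (0.0116). The count was 3 without MCAO ipsilateral replicate 3 and 8 by DESeq2.

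The second list holds 40 known NF-kB targets, of which 34 were tested. Between MCAO and sham ipsilateral, 26 of 34 were higher and 8 lower, with a median log2 value of 0.74 against -0.09 over all genes, of which 45.9% were higher. Of the 34, 0 were called by edgeR (0% of all genes), and DESeq2 called 2. An unadjusted p under 0.05 was found for 6 of the higher and 3 of the lower, against 7.08% of all genes. The smallest p-values were those of Lcn2, the secreted iron-scavenging protein lipocalin 2, at 50.5 CPM (32.1 to 61.3) in MCAO and 2.49 (1.36 to 3.34) in sham (log2 4.34 ± 1.00, adjusted p = 0.411), Ier3 (1.67 ± 0.44, adjusted p = 0.490) and the survival gene Bcl2l1 (1.41 ± 0.43, adjusted p = 0.509). Without both libraries of high receptor gene counts, 1 of the 34 was called, Lcn2 at an adjusted p of 0.0365, and over the alternatives that p ran from 0.00109 by DESeq2 to 1.00 without MCAO ipsilateral replicate 2. On the contralateral side the median was 0.53 against 0.17 over all genes, with 22 higher, 12 lower and 0 called. There 5 had an unadjusted p under 0.05, against 4.41% of all genes. On the ipsilateral side summed endothelial markers were 17425 to 27662 CPM in MCAO and 11374 to 14105 in sham, platelet markers 34.6 to 38.2 and 17.2 to 22.8, and pericyte and smooth muscle markers 38.8 to 89.6 and 100.3 to 151 CPM. None of these sums overlapped. Ly6c1 alone averaged 14514 of a mean endothelial sum of 23251 CPM in MCAO, and 5767 of 13094 CPM in sham. The difference in the endothelial sum thus rests largely on this gene. The part of these markers in the target values was not tested.

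Between libraries labelled Ezh2 ECKO and MCAO ipsilateral, 15 of the 34 targets were higher and 19 lower, with a median of -0.10 against 0.17 over all genes. An unadjusted p under 0.05 was found for 2 of the higher and 8 of the lower, against 19.2% of all genes. Of the 34, 4 fell and 0 rose by the adjusted p, which called 1.46% of all genes, 211 lower and 39 higher. Bcl2l1 fell to 16.5 CPM (14.2 to 20.4) from 103 (50.1 to 152), a log2 difference of -2.63 ± 0.44 with an adjusted p of 0.0188. Lcn2 fell by 5.99 ± 1.09, to 0.792 CPM (0 to 2.32) from 50.5, with an adjusted p of 0.0208. A library of this group was at 0, and the log2 value ran from -10.65 to -5.44 on leaving out 1 library, the former without replicate 1 labelled Ezh2 ECKO. Ier3, a stress-response gene, fell by 1.76 ± 0.44, to 78.5 from 266 CPM, with an adjusted p of 0.0480. The fourth was Gadd45b, a stress gene named after its value was seen, which fell by 2.47 ± 0.62 with an adjusted p of 0.0493. The count was 5 without both libraries of high receptor gene counts and 1 with the receptor gene covariate. It was 0 without MCAO ipsilateral replicate 1 or 2 or replicate 3 labelled Ezh2 ECKO, and 1 without replicate 2 of that label. This comparison and the one with sham share the MCAO ipsilateral libraries.

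Between libraries labelled Hdac2 ECKO and MCAO ipsilateral, 18 of the 34 targets were higher and 16 lower, with a median of 0.12 against 0.11 over all genes. Of the 34, 0 were called (0.0117% of all genes), and 4 higher and 1 lower had an unadjusted p under 0.05 (9.85%). Of the targets that fell under the Ezh2 ECKO label, Ier3 averaged 275 CPM and Gadd45b 42.5 CPM under the Hdac2 ECKO label, while Bcl2l1 averaged 19.2 and Lcn2 15.4 CPM. Of the 50 signalling genes, 17 were higher and 33 lower with a median of -0.22, and 0 were called. Among them 2 higher and 1 lower had an unadjusted p under 0.05, against 9.85% of all genes.

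**Figure D4:**
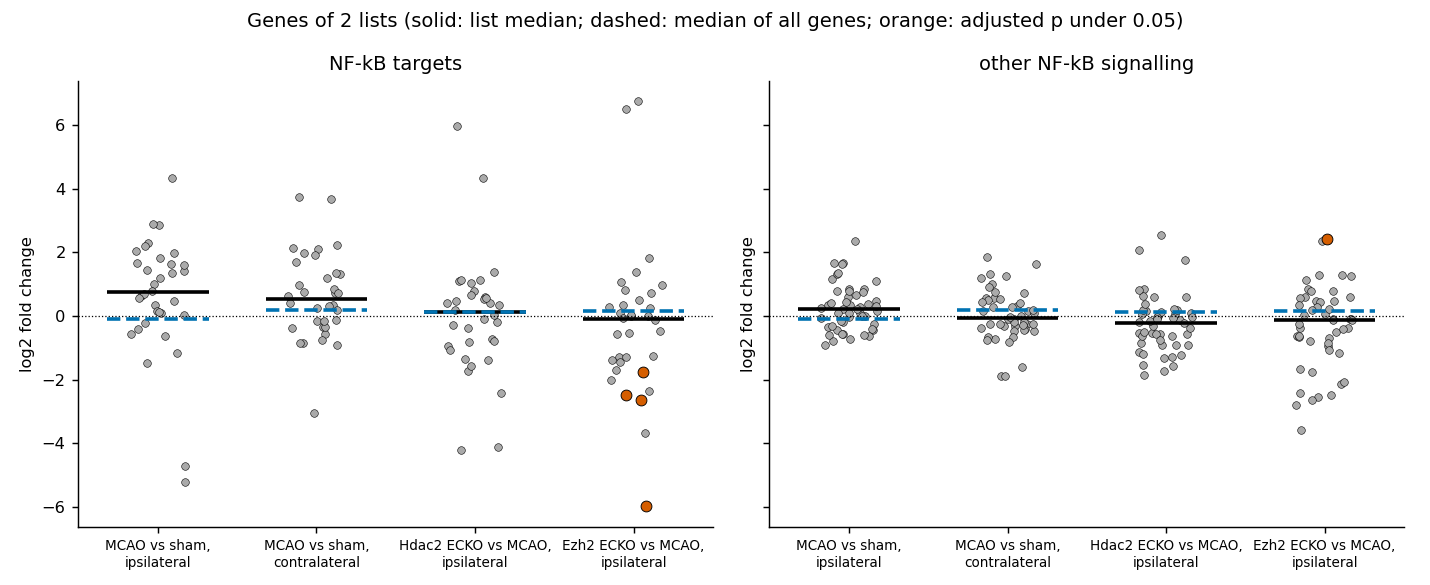
Log2 fold changes of the 34 tested NF-kB targets (left) and the 50 other signalling genes (right) in 4 comparisons, with 1 point per gene, a solid bar at the median of the list and a dashed bar at the median of all 17094 genes. Orange points passed the test: 4 targets and the signalling gene Ly96, all between libraries labelled Ezh2 ECKO and MCAO ipsilateral. The target median for MCAO against sham ipsilateral lies at 0.74, above the -0.09 of all genes.

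The 2 sides of the brain gave no called member. Between MCAO ipsilateral and contralateral 0 of 9 were called (0% of all genes) and 0 had an unadjusted p under 0.05 (3.08%), with Nfkbiz at -0.95 ± 0.51 on the log2 scale (adjusted p = 1.00). In sham mice 0 of 9 were called (0%) and 0 had an unadjusted p under 0.05 (1.85%), although all 3 ipsilateral libraries of Rela lay above the contralateral ones by 0.52 ± 0.43, as for 8.44% of genes, and 0 members lay all below (6.98%). DESeq2 called 0 members in either. The occlusion effect on Nfkbiz differed between the sides by -1.38 ± 0.73, with an unadjusted p of 0.0716 and an adjusted p of 0.941. Against sham ipsilateral, 0 of 9 members were called under the Hdac2 ECKO label (0% of all genes; 2 against 7.14% at an unadjusted p under 0.05) and 0 of 9 under the Ezh2 ECKO label (0.041%; 0 against 6.52%), and DESeq2 called 0 in each.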

How the data were processed

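RNA of sorted cortical endothelial cells was sequenced in 18 libraries, 3 in each of 6 groups taken from the sample labels. The submitters' processing notes name FastQC, cutadapt, STAR, featureCounts, DESeq2 and the mm10 build, with no versions or roles. The strand setting and annotation are not given in the sources used here. The deposited table, although named as normalized, holds whole-number counts per gene that were not scaled to a common total, and these counts were used as deposited. An excess of even values, 77.3% to 89.4% of those from 1 to 20, was found in every library.

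A filter required 10 counts or more in 3 or more libraries and kept 17094 of 21638 genes. All 18 libraries were fitted together with a mean per group in edgeR 4.0.16 (R 4.3.3), with TMM factors and the quasi-likelihood F-test. P-values were adjusted by Benjamini-Hochberg over all genes kept and called under 0.05. CPM is the count scaled to the library's TMM-adjusted total, and SE is the log2 fold change over the square root of F. A count of 3 corresponds to at most 0.101 CPM. Alternatives were RLE factors, DESeq2 1.42.0, no filter, a filter of 50 counts in 6 libraries, a replicate block, the summed level of 1466 olfactory and vomeronasal receptor genes as a covariate, fits of only the groups compared, and leaving out 1 library, or both libraries with high receptor gene counts. The last of these was chosen after seeing the data, as was applying the alternatives to the named list genes.

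The 9 members and the lists were chosen with earlier results of these data known. Besides the members, up to 3 genes per list and comparison are named: those called, smallest adjusted p first, or otherwise those with the smallest p in 2 of the comparisons. The 5 genes most like Nfkbia and Rela are also named. Coordinates are those of the table, which the GENCODE annotation of GRCm38 matched. Promoter windows are from RefSeq. A further list of cell markers is not reported here.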

Additional observations from a re-analysis of the deposited data

How the results depend on the processing

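Genes called by the edgeR fit numbered 0 for MCAO against sham contralateral, 0 for MCAO sides, 0 for MCAO against sham ipsilateral, 250 for Ezh2 ECKO against MCAO, 7 for Ezh2 ECKO against sham, 2 for Hdac2 ECKO against MCAO, 21 for Hdac2 against Ezh2 ECKO, 0 for Hdac2 ECKO against sham, 0 for the difference between the sides and 0 genes for sham sides, and 1 member, Nfkbia for Ezh2 ECKO against MCAO, was called. Nfkbia stayed lower in that comparison under every alternative run, at log2 -1.99 to -1.02, and its call was lost without a filter, with the replicate block (log2 -1.66, adjusted p = 0.0809), with the covariate and without any 1 of 5 of the 6 libraries compared. Same-numbered libraries correlated at -0.44 to 0.41 over 7814 genes, with 0 of 15 pairs of groups over 0.1 throughout, so the numbers were not taken as pairs. Between the 2 sides the values were 0.38, 0.35 and -0.13 in sham and 0.29, 0.39 and 0.03 in MCAO. A pairing of the sides within mice therefore cannot be settled from them, and the side comparisons do not allow for one. The block also left 1 of the 4 called targets, Bcl2l1 (adjusted p = 0.0330, against 0.0558 for Lcn2, 0.0706 for Ier3 and 0.0790 for Gadd45b), and 0 signalling genes (0.0558 for Ly96). Where counts moved, the cause was not tested. With DESeq2, the genes called numbered 26 for MCAO against sham contralateral, 6 for MCAO sides, 69 for MCAO against sham ipsilateral, 1642 for Ezh2 ECKO against MCAO, 189 for Ezh2 ECKO against sham, 244 for Hdac2 ECKO against MCAO, 659 for Hdac2 against Ezh2 ECKO, 246 for Hdac2 ECKO against sham, 6 for the difference between the sides and 6 for sham sides. With DESeq2, the members called numbered 2 for Ezh2 ECKO against MCAO, 1 for Hdac2 ECKO against MCAO and 2 for Hdac2 against Ezh2 ECKO. With RLE factors, the genes called numbered 4 for Hdac2 ECKO against MCAO and 2 for Hdac2 ECKO against sham. With the receptor gene covariate, the genes called numbered 1 for MCAO against sham ipsilateral, 13 for Ezh2 ECKO against MCAO, 12 for Ezh2 ECKO against sham, 10 for Hdac2 ECKO against MCAO, 54 for Hdac2 against Ezh2 ECKO and 6 for Hdac2 ECKO against sham. With the receptor gene covariate, the members called numbered 0 for Ezh2 ECKO against MCAO. With no filter, the genes called numbered 2 for MCAO against sham ipsilateral, 38 for Hdac2 against Ezh2 ECKO and 1 for Hdac2 ECKO against sham. With no filter, the members called numbered 0 for Ezh2 ECKO against MCAO. With only the groups compared, the genes called numbered 74 for MCAO against sham ipsilateral, 485 for Ezh2 ECKO against MCAO, 0 for Hdac2 ECKO against MCAO, 8 for Hdac2 ECKO against sham and 1 for the difference between the sides. With the replicate block, the genes called numbered 12 for Ezh2 ECKO against MCAO and 9 for Hdac2 against Ezh2 ECKO. With the replicate block, the members called numbered 0 for Ezh2 ECKO against MCAO. With the stricter filter, the genes called numbered 606 for Ezh2 ECKO against MCAO, 5 for Hdac2 ECKO against MCAO, 34 for Hdac2 against Ezh2 ECKO and 1 for Hdac2 ECKO against sham. Without both libraries of high receptor gene counts, the genes called numbered 1 for MCAO against sham contralateral, 13 for MCAO against sham ipsilateral, 1000 for Ezh2 ECKO against MCAO, 26 for Ezh2 ECKO against sham, 62 for Hdac2 ECKO against MCAO, 115 for Hdac2 against Ezh2 ECKO and 45 for Hdac2 ECKO against sham. Without both libraries of high receptor gene counts, the members called numbered 1 for Hdac2 ECKO against MCAO. Leaving out 1 library, genes called numbered 0 to 1 for MCAO against sham contralateral, 5 to 298 for Ezh2 ECKO against MCAO, 3 to 15 for Ezh2 ECKO against sham, 0 to 18 for Hdac2 ECKO against MCAO and 9 to 73 for Hdac2 against Ezh2 ECKO. Leaving out 1 library, members called numbered 0 to 1 for Ezh2 ECKO against MCAO.

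Of 90 member values (9 genes in 10 comparisons), 32 changed sign under at least 1 alternative, 8 of them only on leaving out 1 library. Each was uncalled, with an unadjusted p of 0.0828 or more in the edgeR fit. With DESeq2, the log2 values that changed sign were Ikbkb 0.0316 for Ezh2 ECKO against sham, Nfkb1 -0.14 for Hdac2 against Ezh2 ECKO, Nfkb2 0.0583 for MCAO against sham contralateral, Rela -0.11 for the difference between the sides and Relb 0.0698 for Hdac2 ECKO against MCAO. With RLE factors, the log2 values that changed sign were Ikbkb 0.0316 for Ezh2 ECKO against sham, Nfkb1 -0.14 for Hdac2 against Ezh2 ECKO, Nfkb2 0.055 for MCAO against sham contralateral, Rela -0.11 for the difference between the sides and Relb 0.0698 for Hdac2 ECKO against MCAO. With the receptor gene covariate, the log2 values that changed sign were Ikbkb -0.17 and Nfkbib 0.0382 for Ezh2 ECKO against MCAO, Nfkb1 -0.00714 and Nfkbib -0.53 for Hdac2 against Ezh2 ECKO, Nfkb2 0.043 and Tnfaip3 -0.11 for MCAO against sham contralateral, Nfkbia 0.0568 and Relb 0.18 for Hdac2 ECKO against MCAO, Nfkbia -0.15 and Rela -0.32 for the difference between the sides, Nfkbib 0.14 for Ezh2 ECKO against sham, Nfkbib -0.39 for Hdac2 ECKO against sham, Nfkbib 0.0916 for sham sides and Rela -0.0333 for MCAO against sham ipsilateral. With no filter, the log2 values that changed sign were Hdac2 0.0292 and Relb 0.10 for Hdac2 ECKO against MCAO, Ikbkb -0.00359 and Tnfaip3 -0.0871 for MCAO against sham contralateral, Nfkb1 -0.0197 for Hdac2 against Ezh2 ECKO and Nfkbia 0.0234 for MCAO sides. With only the groups compared, the log2 values that changed sign were Nfkb1 -0.11 for Hdac2 against Ezh2 ECKO, Nfkb2 0.0488 for MCAO against sham contralateral, Rela -0.0348 for the difference between the sides and Relb 0.0548 for Hdac2 ECKO against MCAO. With the replicate block, the log2 values that changed sign were Nfkb1 -0.0708 for Hdac2 against Ezh2 ECKO, Nfkb2 0.0143 and Nfkbib 0.0312 and Tnfaip3 -0.10 for MCAO against sham contralateral and Tnfaip3 -0.0519 for Ezh2 ECKO against sham. With the stricter filter, the log2 values that changed sign were Ikbkb 0.0226 for Ezh2 ECKO against sham, Nfkb1 -0.19 for Hdac2 against Ezh2 ECKO, Nfkb2 0.0608 for MCAO against sham contralateral, Rela -0.15 for the difference between the sides and Relb 0.0444 for Hdac2 ECKO against MCAO. Without both libraries of high receptor gene counts, the log2 values that changed sign were Ikbkb -0.19 and Nfkb2 0.33 and Nfkbib 0.43 and Relb 0.0887 and Tnfaip3 -0.60 for MCAO against sham contralateral, Ikbkb 0.0948 for MCAO sides, Ikbkb -0.14 for Ezh2 ECKO against MCAO, Nfkb2 -0.0179 and Nfkbia -0.16 and Rela -0.23 for the difference between the sides, Rela 0.00838 and Relb 0.0997 for Ezh2 ECKO against sham and Relb 0.00288 for Hdac2 ECKO against MCAO. For Hdac2 ECKO against MCAO, leaving out 1 library gave log2 values of Hdac2 -0.25 to 0.0207, Nfkb1 -0.062 to 0.90, Nfkb2 -0.15 to 0.22, Nfkbia -0.53 to 0.0641 and Relb -0.15 to 0.0618. For MCAO against sham contralateral, leaving out 1 library gave log2 values of Ikbkb -0.16 to 0.35, Nfkb2 -0.29 to 0.35, Nfkbib -1.14 to 0.46, Relb -0.53 to 0.12 and Tnfaip3 -0.57 to 0.37. For MCAO sides, leaving out 1 library gave log2 values of Ikbkb -0.44 to 0.0684 and Nfkbia -0.42 to 0.41. For Ezh2 ECKO against MCAO, leaving out 1 library gave log2 values of Ikbkb -0.19 to 0.35. For Ezh2 ECKO against sham, leaving out 1 library gave log2 values of Ikbkb -0.42 to 0.12, Nfkbib -1.30 to 0.00847, Rela -0.90 to 0.00355, Relb -0.50 to 0.0946 and Tnfaip3 -0.65 to 0.49. For Hdac2 against Ezh2 ECKO, leaving out 1 library gave log2 values of Ikbkb -0.0886 to 0.46, Nfkb1 -0.64 to 0.32 and Rela -0.57 to 0.33. For Hdac2 ECKO against sham, leaving out 1 library gave log2 values of Ikbkb -0.11 to 0.16, Nfkb1 -0.44 to 0.52 and Nfkbib -0.19 to 0.87. For the difference between the sides, leaving out 1 library gave log2 values of Nfkb2 -0.0122 to 0.83, Nfkbia -0.14 to 0.70 and Rela -0.21 to 0.24. For sham sides, leaving out 1 library gave log2 values of Nfkb2 -0.35 to 0.45 and Tnfaip3 -0.0325 to 0.44.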
